A study of Zea mays with 12 samples.

Results

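Leaves of the maize inbred line Cat100-6, described in the labels as Al-tolerant, were compared between acid soil and limed control soil across the 17621 probe sets of the Affymetrix GeneChip Maize Genome Array, with the spiked and other array control sets left out. The comparison uses 6 of the 12 arrays of the study, all 3 of Cat100-6 in acid soil of pH 4.1 and all 3 of Cat100-6 in the same soil limed to pH 5.5, chosen by the line and soil in their titles. The other 6 arrays hold the line S1587-17, described as Al-sensitive, in both soils. All seedlings had germinated on moist paper for 2 days and then grew for 3 days at 26 °C in a 16 h light and 8 h dark cycle, 20 to a bag, and both soils carried the same fertiliser. The acid soil held 10 mmolc/dm3 of aluminium and was given calcium as CaCl2, whereas each kg of control soil had received Ca(OH)2, 0.8 g, and had no detectable aluminium, so pH, aluminium and the calcium salt differed together. Each group is 1 inbred line, and the labels do not say whether its 3 samples came from separate bags or how many plants were pooled. The p-values therefore measure only the spread between these samples.

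Aluminium becomes soluble in acid soil, and its best-known injury is to the root tip, where it stops elongation. Tolerant cereals are known for releasing organic acids from the root, so a leaf sees the soil mostly through water, nutrients and signals from below. A young grass leaf is a gradient, with dividing cells at its base, expanding cells above them, and differentiated cells at the tip that run C4 photosynthesis and export sucrose. Division needs cyclins, replication proteins, histones and tubulins. Growth needs ribosomes and secretory protein folding, while the mature blade is rich in plastid, transport and sucrose-export functions. In a whole-leaf RNA sample, fewer cells of a type and less RNA per cell cannot be told apart.

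Values are log2 expression after RMA, the authors' background correction, normalization and summary of each probe set, so a difference of 1 log2 unit is a change of 2-fold. Differences are acid soil minus control soil with their standard error (SE) and n = 3 arrays per group, fitted with limma over all 12 arrays. A probe set passed when its p, adjusted by the Benjamini-Hochberg method over all 17621, was below 0.05. With that threshold 9697 probe sets passed (55.0%), of which 4141 were higher in acid soil (23.5%) and 5556 lower (31.5%). The arrays of the soils did not overlap at 68.6% of all probe sets. The changes upward were the larger ones. At least 3 log2 units separated the soils at 167 probe sets that rose and at 19 that fell, and at least 1 unit at 1824 and 1167. Most probe sets carry no gene name here. Among the 969 genes that could be named, each taken at its brightest probe set, 265 rose (27.3%) and 333 fell (34.4%).

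The libraries differed in ways that touch every result below. Cat100-6 control arrays correlated with each other at 0.9963 to 0.9969 and acid soil arrays at 0.9849 to 0.9959. Acid soil replicate 2 was the farthest from the control mean at 73.4% of the passing probe sets, and replicate 3 the nearest at 72.6%. Across the lines, the Cat100-6 acid soil arrays correlated with the S1587-17 arrays of both soils, other than its control replicate 3, at 0.9601 to 0.9643, while the Cat100-6 control arrays did so at 0.9024 to 0.9186. At 81.1% of the probe sets that rose and 78.9% of those that fell, the Cat100-6 acid soil mean was nearer to the S1587-17 acid soil mean than the Cat100-6 control mean was, and the share was 57.7% among probe sets that did not pass. S1587-17 control replicate 3 stood apart from its own group, at correlations of 0.9632 to 0.967. Where S1587-17 in acid soil was at least 5 log2 units lower than Cat100-6 in control soil, at 21 probe sets, Cat100-6 in acid soil stayed nearer to its own line at 21 of 21. Where S1587-17 was at least 5 units higher, at 51 probe sets, Cat100-6 in acid soil was nearer to its own line at 19 and nearer to S1587-17 at 32. What set the Cat100-6 control arrays and S1587-17 control replicate 3 apart from the other arrays was not tested.

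Array medians in Cat100-6 lay between 7.129 and 7.275, and the median difference of all probe sets was -0.14. The spiked hybridization controls, added in fixed amounts before hybridization, averaged 10.21 ± 0.208 (SD, n = 3) in control soil and 9.715 ± 0.306 in acid soil. Setting the arrays equal on these controls adds about 0.50 log2 units to every difference and moves the median of all to 0.36. With that scaling 37.4% of probe sets were higher and 5.96% lower, so falls of under about 0.50 units hold only relative to the bulk of the transcripts. Some larger falls also no longer pass with it. Of the 241 passing genes named by the rules given at the end, 56 lost the call with that scaling and 10 changed sign. At 5 control genes with probes at both transcript ends, the 3′ minus 5′ level, which grows as RNA is broken down, was 0.657 ± 0.082 log2 units in control soil and 0.584 ± 0.059 in acid soil.

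**Figure D1:**
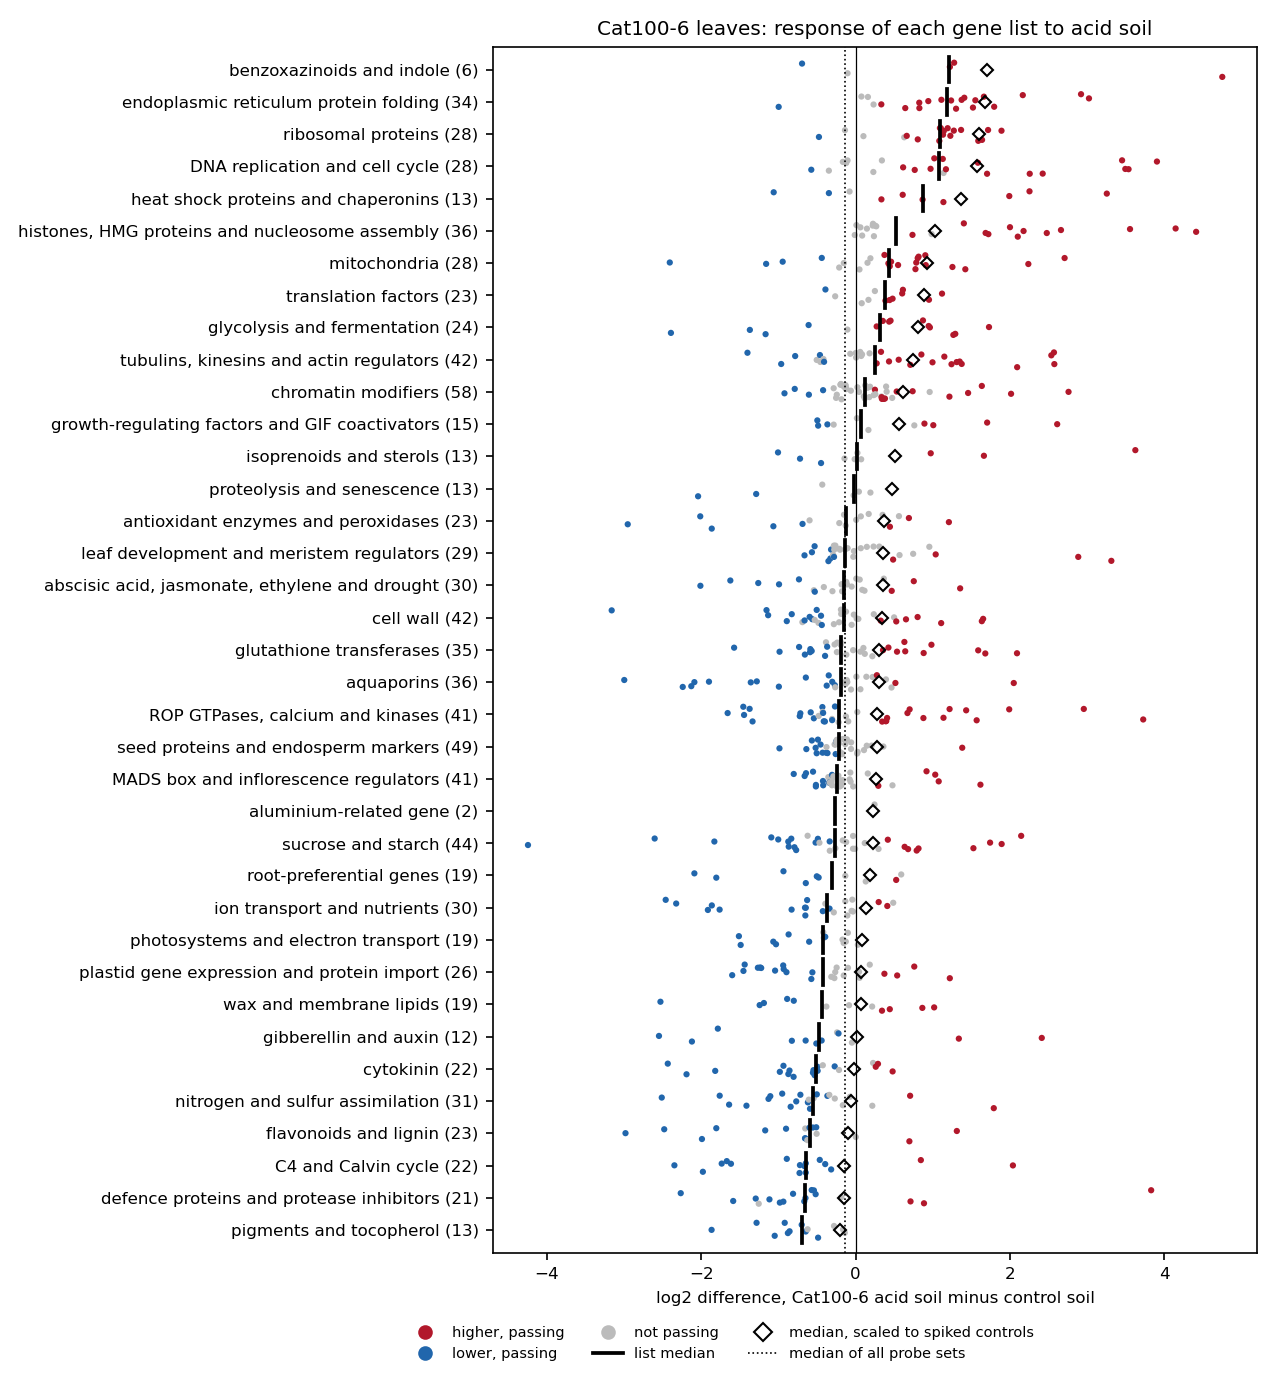
Response of the gene lists in Cat100-6 leaves. The x axis is the log2 difference, acid soil minus control soil, each point is 1 gene at its brightest probe set, coloured by whether it passed, black bars are medians over all probe sets of a list (their number in brackets), open diamonds the same after scaling to the spiked controls, and the dotted line the median of all probe sets, -0.14. Protein folding and replication lists lie near the top with medians of 1.18 and 1.07, and pigments at the bottom with -0.70.

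Genes of cell division rose. Of 28 probe sets for DNA replication and cell cycle, 17 rose and 3 fell, with a median of 1.07, with 21 higher and 0 lower on the spiked-control scale. In this group 5 of 6 replication fork proteins rose with a family median of 2.94, and 5 of the 6 cyclins and cyclin-dependent kinase rose with 1.15. For cyc3, a cyclin that drives entry into mitosis, the log2 values were 3.47, 3.76 and 3.67 on the control soil arrays and 7.15, 8.23 and 7.25 on the acid soil arrays. MCM7, a subunit of the helicase that opens the DNA at replication forks, read 4.17, 4.13 and 3.68 on the control soil arrays and 7.44, 8.10 and 7.06 on the acid soil arrays. At both genes every acid soil array lay above every control array, and the fitted rises were 3.91 ± 0.93, adjusted p = 0.00504 and 3.54 ± 0.86, adjusted p = 0.00582. The sliding clamp pcna2 read 5.91, 5.83 and 6.07 on the control soil arrays and 9.12, 10.10 and 9.07 on the acid soil arrays, a rise of 3.50 ± 0.77, adjusted p = 0.00348. ROA1, a replication origin activator gene, rose by 3.45 ± 0.73, adjusted p = 0.00271, cyc1 by 1.58 ± 0.35, adjusted p = 0.00341 and the kinase cdc2 by 1.17 ± 0.22, adjusted p = 0.00137. Calls for origin recognition were less uniform. Of the origin recognition complex, which marks where replication begins, orc1 rose by 1.02 ± 0.39, adjusted p = 0.0442, a call that ends when any of 8 single arrays is left out (adjusted p up to 0.164), and orc2, orc3 and orc4 had differences of 1.14 ± 0.55, 0.34 ± 0.15 and 0.23 ± 0.099 that did not pass. RBR1, a retinoblastoma-related protein that holds cells before S phase, fell by 0.57 ± 0.15 (adjusted p = 0.00818), and RBR2 was at -0.35 ± 0.14, adjusted p = 0.0576. After scaling to the spiked controls RBR2 is at 0.15, the median of the 2 RBR genes is 0.036, and neither passes as lower.

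The same arrays ranked alike at these genes. Acid soil replicate 2 was the highest of the 3 at cyc3, MCM7 and pcna2, and the list medians over the acid soil arrays were 0.97, 1.33 and 0.79 for replicates 1, 2 and 3. In S1587-17 the cyc3 values were 7.62, 7.86 and 3.26 in control soil and 7.44, 7.68 and 7.86 in acid soil. Control replicate 3 of that line lay with the Cat100-6 control arrays at cyc3, and its other 5 arrays lay with Cat100-6 in acid soil. The difference between the lines' responses did not pass for any replication or cell cycle gene of the list. Control replicate 3 of S1587-17 enters this difference: the list median of the response in that line was 0.38 with it and -0.036 without it.

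**Figure D2:**
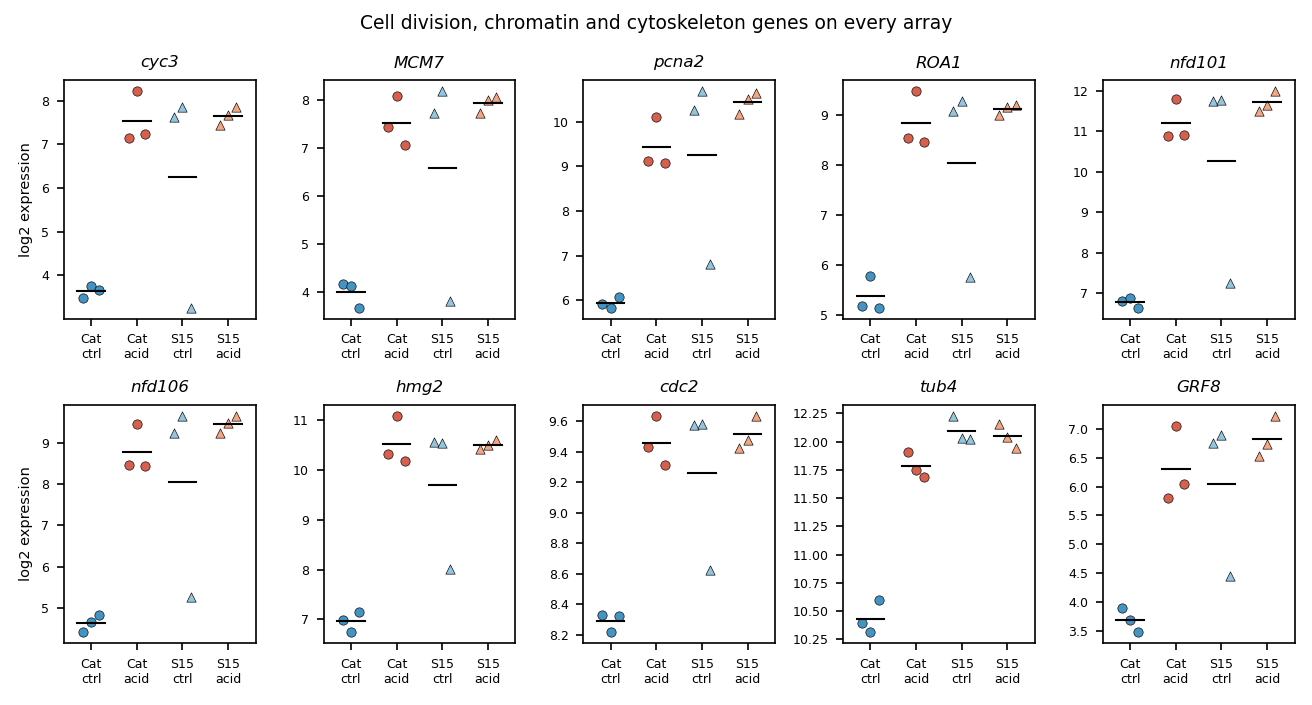
Expression of 10 division, chromatin and cytoskeleton genes on all 12 arrays. The y axis is log2 expression and each panel shows Cat100-6 (circles) and S1587-17 (triangles, S15) in control (ctrl) and acid soil, with 1 point per array and a bar at the group mean. At each of the 10 genes the 3 Cat100-6 control arrays lie below the 3 acid soil arrays. The same holds at 27.9% of all probe sets. At all but tub4 1 S1587-17 control array lies well below the other 5 of that line.

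Chromatin proteins rose with the replication genes. The list of histones, HMG proteins and nucleosome assembly has 36 probe sets, of which 17 rose and 2 fell, and its median was 0.53, with 28 higher and 0 lower on the spiked-control scale. With each gene at its brightest probe set, the largest rises belonged to HMG-box proteins, which bend DNA and loosen chromatin. For nfd101 the values were 6.82, 6.88 and 6.64 on the control soil arrays and 10.89, 11.79 and 10.90 on the acid soil arrays, a rise of 4.41 ± 0.93, adjusted p = 0.00268 or 21.3-fold. It was followed by nfd106 at 4.15 ± 0.87, adjusted p = 0.00264 and by hmg2 at 3.56 ± 0.55, adjusted p = 0.000542. Replicate 2 was again the highest acid soil array at nfd101. Over all probe sets of the list the highest value was that of a dimmer probe set of MNB1b, another HMG-box gene, which was picked after its values were seen. It read 5.11, 4.70 and 4.97 on the control soil arrays and 12.16, 12.50 and 11.97 on the acid soil arrays, a rise of 7.285 ± 0.80, adjusted p = 9.78e-05. The brightest probe set of MNB1b was at -0.011 ± 0.084, adjusted p = 0.917 (0.49 on the spiked-control scale), so the probe sets of this gene differ. Nucleosome assembly proteins carry histones onto new DNA, and 6 of 8 rose, among them nfa101 by 2.18 ± 0.38, nfc101 by 2.102 ± 0.34, nfa103 by 2.00 ± 0.35 and nfc102 by 1.69 ± 0.28 (adjusted p of 0.000736 to 0.00109). For chromatin modifiers, 17 of 58 probe sets rose and 4 fell, beside 23.5% and 31.5% of all probe sets. Their median was 0.12, with 35 higher and 0 lower on the spiked-control scale and 12 higher and 13 lower when array medians are subtracted. Within that broad list the HD2-type histone deacetylase hdt102 rose by 1.64 ± 0.35, adjusted p = 0.00286 and the DNA methyltransferase genes met5 and dmt106 by 2.76 ± 0.78 and 1.22 ± 0.18 (adjusted p = 0.0121 and 0.000521). The related dmt101, met2 and met4 were at 0.96 ± 0.41, 0.40 ± 0.30 and -0.13 ± 0.10 and did not pass. The acetyltransferase hac108 fell by 0.79 ± 0.12 (adjusted p = 0.000442). The Polycomb genes mez1 and mez2, whose products methylate histone H3, went opposite ways at 0.34 ± 0.087, adjusted p = 0.00783 and -0.92 ± 0.23, adjusted p = 0.00674.

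Tubulins build the spindle and the microtubules that guide wall deposition. Of 42 probe sets for tubulins, kinesins and actin regulators, 21 rose and 5 fell, with a median of 0.25, with 29 higher and 1 lower on the spiked-control scale and 17 higher and 9 lower when array medians are subtracted. Of 12 tubulins, 10 rose and 1 fell, with a family median of 0.78, and the single fall, tub3 at -0.96 ± 0.18, adjusted p = 0.0013, was at -0.47 on the spiked-control scale and no longer passed there (adjusted p = 0.0722). The beta tubulin tub4 read 10.39, 10.31 and 10.60 on the control soil arrays and 11.91, 11.75 and 11.69 on the acid soil arrays, which makes a rise of 1.35 ± 0.11, adjusted p = 2.23e-05 with no overlap. Rises of 1.31 ± 0.15, 1.15 ± 0.14 and 1.00 ± 0.13 were fitted for tub6, tua6 and tub5 (adjusted p of 0.000106 to 0.000218). Kinesin motors rose at 4 of 8 genes, with none lower, though 3 others count as lower when array medians are subtracted. BRICK1, encoded by brk1, belongs to the SCAR complex that starts actin branching and shapes the lobes of leaf epidermal cells. Its values were 9.38, 9.07 and 9.30 on the control soil arrays and 10.73, 10.59 and 10.55 on the acid soil arrays, a rise of 1.38 ± 0.14, adjusted p = 5.67e-05.

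Growth-regulating factors and their GIF partners set how long leaf cells go on dividing. The list of growth-regulating factors and GIF coactivators has 15 probe sets, of which 4 rose and 3 fell, beside 23.5% and 31.5% of all probe sets. Its median was 0.071, which turns to -0.028 when array medians are subtracted, with 3 then higher and 4 lower. On the spiked-control scale 6 were higher and 0 lower. GRF8 rose from 3.69 ± 0.214 (SD) to 6.30 ± 0.658, a difference of 2.61 ± 0.55, adjusted p = 0.00274, and GRF5 by 0.89 ± 0.21, adjusted p = 0.0053. GRF13 and GRF14 moved the other way, at -0.50 ± 0.12 and -0.49 ± 0.1 (adjusted p = 0.00491 and 0.00233), falls that vanish to 0.00078 and 0.011 on the spiked-control scale. Among the coactivators GIF3 rose by 1.71 ± 0.33, adjusted p = 0.00183, GIF1 was at 0.76 ± 0.43, adjusted p = 0.149, and GIF2 was at 0.017 ± 0.098, adjusted p = 0.893, with a sign that depends on the setting.

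Protein synthesis formed the second rising block. For ribosomal proteins, 21 of 28 probe sets rose and 1 fell (median 1.099). Of 23 probe sets for translation factors, 13 rose and 1 fell, with a median of 0.39, with 10 higher and 5 lower when array medians are subtracted. Acidic stalk protein rpp2a-3 read 9.06, 8.85 and 8.79 on the control soil arrays and 10.71, 11.20 and 10.47 on the acid soil arrays, and the rise of 1.89 ± 0.22, adjusted p = 0.000145 is the highest among the named ribosomal genes. The subunit proteins RPL19, rps6-2, rps27 and rps6-1 rose by 1.64 ± 0.21, 1.59 ± 0.19, 1.23 ± 0.16 and 1.08 ± 0.16, with adjusted p of 0.000167 to 0.000518. Ribosomal gene copies are alike in sequence, so probes of 1 may also read another. Of the factors, the cap-binding protein eIF4E1 rose by 1.12 ± 0.25, adjusted p = 0.00386, the helicases tif-4A3 and tif4A2 by 0.95 ± 0.13 and 0.61 ± 0.1, and the elongation factors elfa2 and elfa3 by 0.60 ± 0.12 and 0.48 ± 0.096 (adjusted p of 0.000278 to 0.00216). The ribosomal medians on acid soil replicates 1, 2 and 3 were 1.03, 1.38 and 0.87.

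Folding of secreted proteins rose as a group. The list of endoplasmic reticulum protein folding has 34 probe sets, of which 24 rose and 2 fell, and its median was 1.18. All 11 protein disulfide isomerases, which form and shuffle disulfide bonds, passed upward, with a median of 1.24 and a range of 0.33 to 3.02. At the top, pdi read 7.32, 7.09 and 7.10 on the control soil arrays and 10.06, 10.63 and 9.89 on the acid soil arrays, a rise of 3.02 ± 0.40, adjusted p = 0.000256. Its relatives pdi7, pdi6 and pdi4 rose by 1.41 ± 0.15, 1.37 ± 0.15 and 1.30 ± 0.17. The 4 lectin and Hsp70 chaperones of the compartment rose as well. Calreticulin crt2 read 8.74, 8.82 and 8.73 on the control soil arrays and 11.51, 11.99 and 11.56 on the acid soil arrays, the luminal Hsp70 bip1 rose by 2.17 ± 0.33, adjusted p = 0.000558, bip2 by 1.52 ± 0.26 and calnexin CNX by 1.55 ± 0.23. The crt2 difference of 2.92 ± 0.24, adjusted p = 2.06e-05 was 7.58-fold, with no overlap between the soils. For heat shock proteins and chaperonins, 9 of 13 probe sets rose and 3 fell (median 0.87, with 9 higher and 0 lower on the spiked-control scale). The mitochondrial chaperonins CPNB and CPNA rose by 3.26 ± 0.62, adjusted p = 0.00164 and 2.25 ± 0.40, adjusted p = 0.00113, and the cognate chaperones hsp70-5 and hsp70-4 by 1.14 ± 0.20 and 0.87 ± 0.17. Small heat shock proteins, the usual markers of heat and protein damage, were split: hsp22 rose by 1.99 ± 0.29, adjusted p = 0.00043, hsp18f by 0.61 ± 0.16 and hsp18c by 0.33 ± 0.11, while hsp26 of the plastid fell by 1.06 ± 0.27 and hsp18a by 0.35 ± 0.13 (adjusted p = 0.00772 and 0.0435). The hsp18c and hsp18a calls end without any of 3 and of 5 single arrays, at adjusted p up to 0.09 and 0.133, and hsp18a is at 0.15 on the spiked-control scale.

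Mitochondrial and glycolytic genes followed. Of 28 probe sets for mitochondria, 17 rose and 6 fell, with a median of 0.43, with 19 higher and 2 lower on the spiked-control scale. Prohibitins, ring-shaped scaffolds of the inner membrane, rose at 4 of 4 genes: phb4 by 2.71 ± 0.51, adjusted p = 0.00147, phb2 by 1.25 ± 0.23, phb1 by 0.91 ± 0.20 and phb3 by 0.55 ± 0.18, the last with adjusted p = 0.021 and up to 0.0723 without control replicates 2 or 3 or acid soil replicate 2. All 6 porins and adenine nucleotide carriers rose, led by por1 at 1.42 ± 0.16, adjusted p = 0.000106, with ANT2 at 0.80 ± 0.097. The phage-type RNA polymerase rpo2 and the aldehyde dehydrogenase rf2b rose by 0.82 ± 0.12 and 0.78 ± 0.12 (adjusted p = 0.000422 and 0.00058). Pyruvate dehydrogenase kinases, which switch off entry of pyruvate into respiration, fell at both genes, pdlk2 from 9.93 ± 0.063 (SD) to 7.52 ± 0.743 (-2.41 ± 0.39, adjusted p = 0.000667) and pdlk1 by 0.44 ± 0.13 (adjusted p = 0.0135), the latter at 0.058 once scaled to the spiked controls. Alternative oxidases, respiratory bypass enzymes that many stresses induce, did not pass: aox1, aox2 and aox3 were at -0.21 ± 0.11, 0.050 ± 0.16 and -0.15 ± 0.11. The list of glycolysis and fermentation has 24 probe sets, of which 13 rose and 5 fell, and its median was 0.31, with 14 higher and 3 lower on the spiked-control scale. The 4 cytosolic glyceraldehyde-3-phosphate dehydrogenases rose, with gpc4 at 1.73 ± 0.17, adjusted p = 5.8e-05, gpc3 at 1.27 ± 0.12, adjusted p = 4.86e-05, gpc2 at 0.35 ± 0.075 and gpc1 at 0.27 ± 0.075. Enolase eno2 and aldolase ald1 rose by 0.95 ± 0.17 and 0.87 ± 0.16 (adjusted p = 0.0012 and 0.0012). Against them, pfk1 fell from 10.43 ± 0.103 (SD) to 8.04 ± 0.716, or -2.39 ± 0.38, adjusted p = 0.00062.

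Plastid and photosynthetic genes were more often lower than higher, by smaller amounts. For photosystems and electron transport, 0 of 19 probe sets rose and 10 fell (median -0.42, which turns to 0.078 when arrays are scaled to the spiked controls, with 1 then higher and 5 lower). Of 4 light-harvesting proteins 1 passed. Cab-m7 read 14.05, 14.02 and 14.03 on the control soil arrays and 14.06, 14.04 and 14.08 on the acid soil arrays, and lhcb6, lhcb5 and Cab-m7 were at -0.10 ± 0.086, -0.17 ± 0.082 and 0.029 ± 0.073 without passing. The other one, Lhcb5-2, fell, at -0.39 ± 0.097, adjusted p = 0.00599, and it is at 0.10 on the spiked-control scale. Cab-m7, a leaf marker, lay far above the array medians in both soils, in samples that a shared description calls root leaves. Falls were larger at the acceptor side of photosystem I. Both leaf ferredoxin-NADP reductases fell, L-FNRI from 10.88 ± 0.0941 (SD) to 9.39 ± 0.513 (-1.49 ± 0.29, adjusted p = 0.00168) and L-FNRII by 1.07 ± 0.24. The cyclic electron flow gene pgr5 fell by 1.51 ± 0.27 and ftr1, which passes electrons to thioredoxin, by 1.03 ± 0.19 (adjusted p = 0.00109 and 0.00118). Ferredoxin fdx2 was at -0.60 ± 0.20, adjusted p = 0.0265, a call lost without any 1 of 4 arrays (up to 0.104).

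In the C4 pathway, mesophyll cells fix CO2 into malate, which is shuttled to the bundle sheath. Of 22 probe sets for C4 and Calvin cycle, 3 rose and 18 fell, with a median of -0.65, and -0.15 on the spiked-control scale, with 3 then higher and 5 lower. All 4 enzymes of the cycle fell, and ME1 alone still counts as lower on the spiked-control scale. NADP-malic enzyme ME1, the decarboxylase of the bundle sheath, read 13.76, 13.73 and 13.72 on the control soil arrays and 12.37, 11.05 and 12.94 on the acid soil arrays, and its 3 acid soil arrays were spread more widely than the control arrays above them. The fitted falls were -1.62 ± 0.42, adjusted p = 0.00827 for ME1, -0.89 ± 0.21, adjusted p = 0.00488 for the malate dehydrogenase mdh6, -0.66 ± 0.20, adjusted p = 0.0164 for pyruvate phosphate dikinase pdk1, and -0.65 ± 0.23, adjusted p = 0.0326 for PEP carboxylase pep1. The pep1 call ends without any 1 of 4 arrays (adjusted p up to 0.0947). The dikinase regulator pdrp1 fell further, from 11.99 ± 0.126 (SD) to 9.64 ± 0.836 (-2.35 ± 0.39, adjusted p = 0.000828), and gpb1 by 0.73 ± 0.14. Among envelope transporters of the cycle pDCT2, pOMT1, pDCT1 and TPT were at -1.98 ± 0.40, -1.74 ± 0.30, -0.65 ± 0.22 and -0.32 ± 0.12. All 4 passed, TPT by a margin that 9 single arrays can remove (adjusted p = 0.0467, up to 0.177) and with a sign that turns to 0.18 on the spiked-control scale, and pDCT1 by one that 3 can (up to 0.0989). The PEP translocator ppt1 did the opposite and rose from 8.30 ± 0.0579 (SD) to 10.34 ± 0.4 (2.04 ± 0.35, adjusted p = 0.000968). The list medians of -0.49, -0.99 and -0.30 on acid soil replicates 1, 2 and 3 show how much these falls vary between arrays.

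Genes that express and build the plastid were also more often lower than higher. The list of plastid gene expression and protein import has 26 probe sets, of which 4 rose and 13 fell, and its median was -0.43, which turns to 0.068 when arrays are scaled to the spiked controls, with 6 then higher and 7 lower. Sigma factors direct the plastid's bacterial-type RNA polymerase to its promoters, and 5 of 5 fell: sig6, sig3, sig1, sig2B and sig2A by 1.44, 1.27, 1.24, 1.22 and 0.57 (SE 0.24 to 0.29 for the first 4 and 0.17 for sig2A). Adjusted p ran from 0.00189 to 0.0165, with sig2A at up to 0.0682 without control or acid soil replicate 2, and 4 of the 5 still count as lower on the spiked-control scale. The intron splicing cofactors CAF1 and caf2 fell by 0.90 ± 0.17 and 0.93 ± 0.15, the protease gene lon1 by 1.60 ± 0.23 and the thylakoid translocon csy1 by 0.94 ± 0.23. Other thylakoid transport genes, hcf106, Hcf106C, tha9 and tha4, were at -0.25 ± 0.12, -0.15 ± 0.11, -0.099 ± 0.13 and 0.18 ± 0.10 and did not pass. The import receptor toc34B rose by 0.54 ± 0.09, adjusted p = 0.000832. For pigments and tocopherol, 0 of 13 probe sets rose and 9 fell (median -0.70, and -0.20 on the spiked-control scale, with 0 then higher and 3 lower). None passed as higher. Falls were fitted for the carotenoid cleavage dioxygenase CCD1 (-1.87 ± 0.31, adjusted p = 0.000752), the tocopherol cyclase sxd1 (-1.28 ± 0.29), phytoene desaturase pds1 (-1.05 ± 0.22), phytoene synthase psy2 (-0.86 ± 0.19) and the uroporphyrinogen decarboxylase les22 (-0.92 ± 0.22).

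Sucrose export held the deepest fall among the named genes at their brightest probe sets. Sucrose phosphate synthase makes the sucrose that a mature leaf exports, and sps1 read 10.09, 10.75 and 10.59 on the control soil arrays and 6.05, 5.38 and 7.26 on the acid soil arrays. All acid soil arrays lay below all control arrays, and the fitted difference was -4.25 ± 0.49, adjusted p = 0.000134, 19-fold. The phloem loader sut1 read 10.94, 11.13 and 11.02 on the control soil arrays and 8.49, 7.57 and 9.22 on the acid soil arrays, a difference of -2.60 ± 0.46, adjusted p = 0.00105. Sucrose phosphatase spp1 fell by 1.00 ± 0.18 (adjusted p = 0.0012) and its relative SPP2 was higher at 0.68 ± 0.24, adjusted p = 0.0341, a call that leaving out any of 4 arrays ends (up to 0.123). Of 44 probe sets for sucrose and starch, 10 rose and 18 fell, beside 23.5% and 31.5% of all probe sets. Their median was -0.27, which turns to 0.23 when arrays are scaled to the spiked controls, with 16 then higher and 4 lower. The shares of all probe sets on that scale were 37.4% and 5.96%. Of 9 genes for sucrose cleavage and fructokinases, 4 rose, 3 fell and 2 did not pass, with a median of -0.26. Fructokinase frk2 rose by 1.89 ± 0.19, adjusted p = 6.58e-05, and of ADP-glucose pyrophosphorylase, the first committed step of starch, AGPLS3, Agp2 and bt2 rose by 2.15 ± 0.32, 1.74 ± 0.13 and 0.42 ± 0.12. The bt2 call (adjusted p = 0.0142) reached 0.0568 without acid soil replicate 1 or control replicate 3. The leaf-type subunit GLG1 fell by 0.83 ± 0.19, and sh2, known from the endosperm, was at -0.0068 ± 0.11. The wall invertase incw1 fell by 1.83 ± 0.23 (adjusted p = 0.000181). Starch debranching genes iso2, zpu1 and iso3 fell by 1.09 ± 0.20, 0.87 ± 0.25 and 0.77 ± 0.25, the last 2 with adjusted p up to 0.0556 and 0.0949 on leaving out acid soil replicate 2. The beta amylase BMY1 was at -0.62 ± 0.30, adjusted p = 0.0969, and the plastid glucose transporter glct1 rose by 0.79 ± 0.091, adjusted p = 0.000126.

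**Figure D3:**
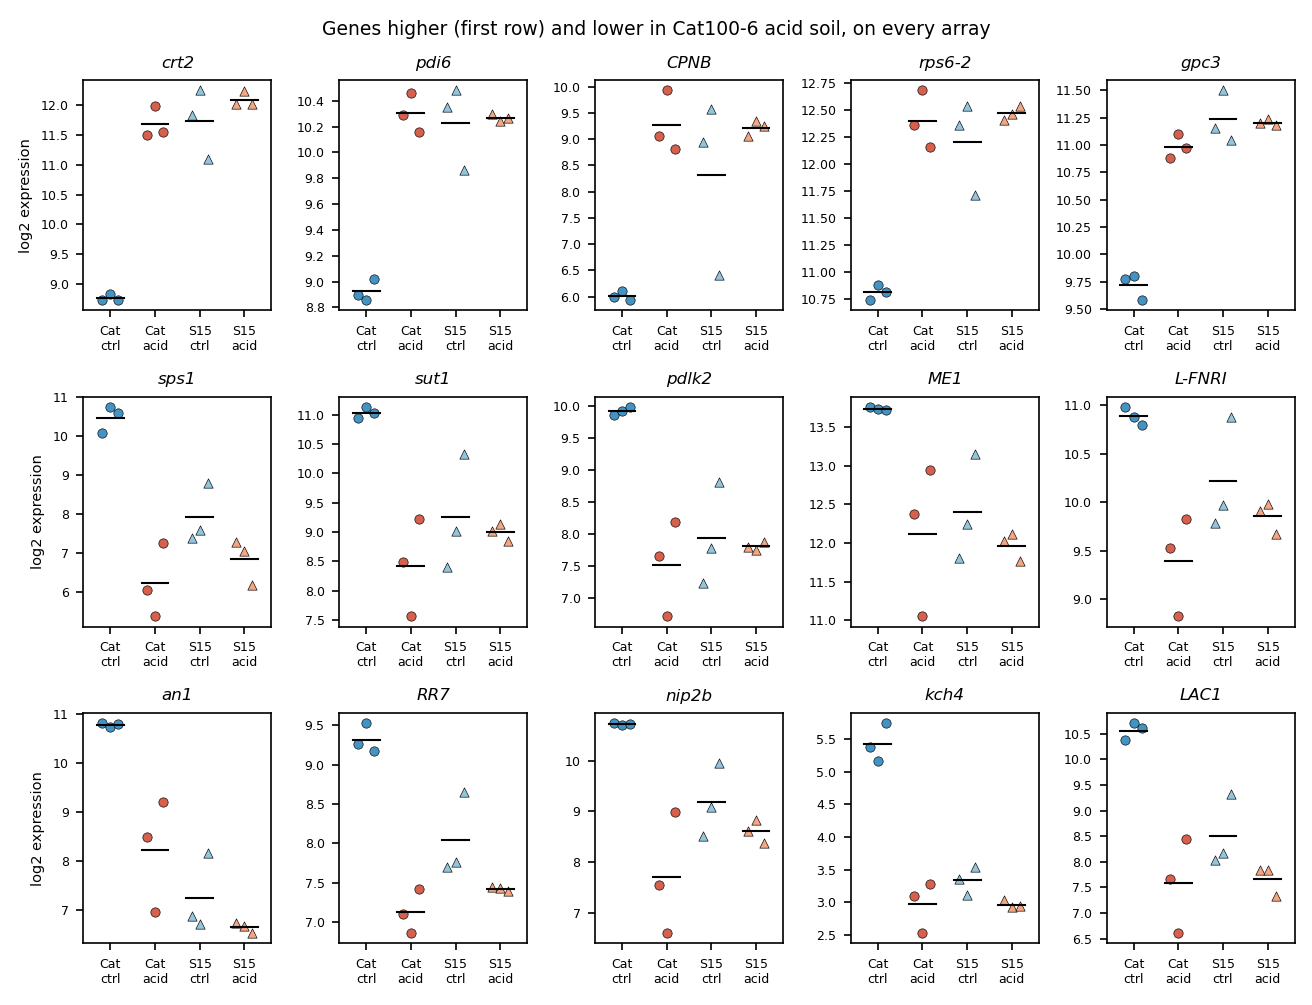
Expression of 15 genes on all 12 arrays, with 5 that rose in the first row and 10 that fell below them. The y axis is log2 expression, circles are Cat100-6, triangles S1587-17 (S15), ctrl is control soil, each point is 1 array and bars are group means. The Cat100-6 soils do not overlap in any of the 15 panels, and among the genes that fell acid soil replicate 2 (middle point) is the lowest. Over all probe sets the soils did not overlap at 68.6%.

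In nitrogen and sulfur assimilation most calls were falls relative to the bulk of the transcripts. The list of nitrogen and sulfur assimilation has 31 probe sets, of which 2 rose and 18 fell, and its median was -0.56, and -0.060 on the spiked-control scale, with 4 then higher and 5 lower. Nitrate reductase NNR1, the entry step for nitrate, fell from 9.65 ± 0.103 (SD) to 7.14 ± 0.77 (-2.51 ± 0.40, adjusted p = 0.000667), and the hemoglobin Hb2 by 1.76 ± 0.18 (adjusted p = 7.49e-05). All 3 serine acetyltransferases, which provide the carbon skeleton of cysteine, fell, 1 of them also on the spiked-control scale, sat1 by 1.42 ± 0.25, sat2 by 0.84 ± 0.22 and sat3 by 0.72 ± 0.11. Of 5 glutamine synthetases GLN6 and the plastid form gln1 fell by 1.11 ± 0.28 and 0.95 ± 0.24, and gln2, gln3 and gln5 were at -0.61 ± 0.27, -0.27 ± 0.19 and 0.22 ± 0.20 without passing. Asparagine synthetase AsnS1 rose. Its values were 10.35, 9.00 and 9.81 on the control soil arrays and 11.57, 11.35 and 11.60 on the acid soil arrays, a difference of 1.79 ± 0.26, adjusted p = 0.000426. The glutathione gene gsh1 rose by 0.71 ± 0.091, adjusted p = 0.00022.

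Among the hormones, gibberellin synthesis fell at 5 of 5 genes, 3 of which count as lower on the spiked-control scale. For gibberellin and auxin, 2 of 12 probe sets rose and 8 fell (median -0.47, which turns to 0.022 when arrays are scaled to the spiked controls, with 2 then higher and 3 lower). The 5 gibberellin genes run from the first cyclisation to the 20-oxidase. The gene an1, for the enzyme that makes ent-copalyl diphosphate, fell from 10.78 ± 0.0425 (SD) to 8.23 ± 1.15 (-2.55 ± 0.49, adjusted p = 0.00173). The 20-oxidase GA20 fell by 2.12 ± 0.33, the kaurenoic acid oxidase d3 by 1.79 ± 0.35, kaurene synthase KS2.1 by 0.65 ± 0.16 and CPPS2 by 0.51 ± 0.14. The CPPS2 call (adjusted p = 0.0121) is at 0.0522 without acid soil replicate 1. For auxin, the import carrier aux1 rose from 4.29 ± 0.101 (SD) to 6.71 ± 0.198 (2.41 ± 0.35, adjusted p = 0.000437) and the binding protein abp1 by 1.34 ± 0.15, adjusted p = 9.48e-05, while the nitrilase NIT2 fell by 0.83 ± 0.12. Of 22 probe sets for cytokinin, 3 rose and 14 fell, with a median of -0.51, and -0.016 on the spiked-control scale, with 4 then higher and 4 lower and 0 higher and 16 lower when array medians are subtracted. Response regulators of cytokinin signalling fell at 8 of 10 genes and rose at 1, and 4 count as lower on the spiked-control scale. For RR7 the fall was -2.19 ± 0.23, adjusted p = 8.07e-05, for RR6 -2.44 ± 0.45, adjusted p = 0.00131, for RR11 -1.82 ± 0.29 and for RR5 -0.98 ± 0.16. The phosphotransmitter hp2 fell by 0.87 ± 0.11 (adjusted p = 0.000164).

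Stress hormones showed no common direction. The list of abscisic acid, jasmonate, ethylene and drought has 30 probe sets, of which 5 rose and 6 fell, beside 23.5% and 31.5% of all probe sets. Its median was -0.15, which turns to 0.35 when arrays are scaled to the spiked controls, with 9 then higher and 3 lower. Tasselseed2, ts2, encodes a dehydrogenase of floral sex determination and fell by 2.01 ± 0.33 (adjusted p = 0.000694). The ethylene-forming oxidase ACO20 fell by 1.62 ± 0.28, the oxophytodienoate reductase genes opr5 and opr1 by 1.26 ± 0.23 and 0.73 ± 0.12, and the lipoxygenase lox1 rose by 1.35 ± 0.27, adjusted p = 0.00201. The gene asr1, whose relatives in rice are known for a part in aluminium tolerance, was at 0.24 ± 0.11, adjusted p = 0.0775. Its other probe set was at -0.78 with the acid soil arrays below the control arrays, and did not pass either. That probe set does count as lower when array medians are subtracted, so the probe sets of asr1 differ in sign.

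Secondary metabolism split by pathway. For benzoxazinoids and indole, 4 of 6 probe sets rose and 1 fell (median 1.21, with 4 higher and 0 lower on the spiked-control scale). Benzoxazinoids are the indole-derived toxins of young maize, stored as glucosides. The gene glu1, for the beta-glucosidase that frees the toxin, read 5.82, 5.96 and 5.36 on the control soil arrays and 10.32, 10.83 and 10.24 on the acid soil arrays and had the highest rise of the named genes at their brightest probe sets, 4.75 ± 0.86, adjusted p = 0.00122 or 27-fold. The biosynthetic genes bx1 and bx6 rose by 1.28 ± 0.17 and 1.22 ± 0.15 (adjusted p = 0.000308 and 0.000194). For bx6 the arrays read 11.76, 11.61 and 11.40 on the control soil arrays and 12.78, 12.96 and 12.69 on the acid soil arrays. The second glucosidase glu2 fell by 0.69 ± 0.23 (adjusted p = 0.0272, up to 0.11 without control replicate 2 or 3 or acid soil replicate 2), and igl1, which releases free indole, was at -0.10 ± 0.095, adjusted p = 0.361. Of 23 probe sets for flavonoids and lignin, 2 rose and 13 fell, with a median of -0.60, and -0.10 on the spiked-control scale, with 3 then higher and 5 lower. The laccase LAC1 fell from 10.56 ± 0.17 (SD) to 7.58 ± 0.923 (-2.98 ± 0.43, adjusted p = 0.000389), flavanone hydroxylase fht1 by 2.48 ± 0.40, cinnamoyl-CoA reductase cncr1 by 1.99 ± 0.37 and the methyltransferase zrp4 by 1.81 ± 0.21 (adjusted p of 0.000151 to 0.0014). The list's chs1, for which the gene table also gives the name minE, rose by 1.31 ± 0.14, adjusted p = 7.28e-05. The list of isoprenoids and sterols has 13 probe sets, of which 4 rose and 3 fell, and its median was 0.016, which turns to -0.082 when array medians are subtracted, with 8 higher and 0 lower on the spiked-control scale. Over all probe sets 23.5% rose and 31.5% fell. The plastid entry enzymes dxs1 and dxr fell by 1.01 ± 0.23 and 0.72 ± 0.20, falls that no longer pass on the spiked-control scale, and the 3 genes of the sterol branch rose. Farnesyl diphosphate synthase fps1 read 5.99, 5.56 and 5.68 on the control soil arrays and 9.19, 9.88 and 9.04 on the acid soil arrays, a rise of 3.63 ± 0.60, adjusted p = 0.000769, and was followed by smt1 at 1.66 ± 0.33 and squalene synthase sqs1 at 0.97 ± 0.19. The sesquiterpene cyclase stc1 fell by 0.45 ± 0.11 and is at 0.049 after scaling to the spiked controls.

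Wall and surface genes changed in both directions. For cell wall, 11 of 42 probe sets rose and 14 fell (median -0.16, which turns to 0.34 when arrays are scaled to the spiked controls, with 16 then higher and 3 lower). These shares are near the 23.5% of all probe sets that rose and the 31.5% that fell. The deepest fall was that of xet1, a xyloglucan endotransglycosylase that cuts and rejoins wall polymers, which read 8.33, 8.55 and 9.03 on the control soil arrays and 5.66, 4.12 and 6.65 on the acid soil arrays (-3.16 ± 0.53, adjusted p = 0.000818). Alpha expansins, which loosen walls for growth, divided: expA4 and expA3 rose by 1.65 ± 0.22, adjusted p = 0.000246 and 1.11 ± 0.21, adjusted p = 0.00154, EXPA5 and expa1 fell by 0.89 ± 0.24 and 0.66 ± 0.24, and expa2 was at 0.50 ± 0.29, adjusted p = 0.156. The expa1 call (adjusted p = 0.039) ends when any of 5 arrays is left out, up to 0.143. The beta expansin expB8 and the glycosylated polypeptide RGP rose by 0.80 ± 0.14 and 1.64 ± 0.22 (adjusted p = 0.000894 and 0.000252). Of 19 probe sets for wax and membrane lipids, 4 rose and 10 fell, beside 23.5% and 31.5% of all probe sets. Their median was -0.43, which turns to 0.066 when arrays are scaled to the spiked controls, with 6 then higher and 5 lower. The wax gene gl1 fell from 10.97 ± 0.135 (SD) to 8.44 ± 1.09 (-2.53 ± 0.45, adjusted p = 0.00116) and the plastid desaturases FAD8 and fad7 by 1.19 ± 0.23 and 0.89 ± 0.18. The elongase fae2 and phospholipase gene PLC rose by 0.86 ± 0.11 and 1.02 ± 0.15 (adjusted p = 0.000221 and 0.000518).

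Channels and transporters changed in both directions, with more calls on the lower side. The list of aquaporins has 36 probe sets, of which 6 rose and 16 fell, beside 23.5% and 31.5% of all probe sets. Its median was -0.19, which turns to 0.30 when arrays are scaled to the spiked controls, with 12 then higher and 8 lower. The NIP subfamily holds the silicon channels of grasses and moved most: nip2b read 10.73, 10.70 and 10.71 on the control soil arrays and 7.55, 6.61 and 8.98 on the acid soil arrays (-2.999 ± 0.50, adjusted p = 0.000788), Lsi6 fell by 2.24 ± 0.49, Lsi1 by 2.09 ± 0.33 and NIP3-1 by 0.65 ± 0.21. The NIP3-1 call (adjusted p = 0.024) reaches 0.0928 with 1 of 3 arrays left out. NIP1-1 rose from 8.89 ± 0.174 (SD) to 10.94 ± 0.243 (2.05 ± 0.15, adjusted p = 1.15e-05). The tonoplast channel TIP2-2 and the plasma membrane channel PIP2-6 fell by 1.90 ± 0.18 and 1.36 ± 0.17 (adjusted p = 4.51e-05 and 0.000218). For ion transport and nutrients, 2 of 30 probe sets rose and 17 fell (median -0.37, which turns to 0.13 when arrays are scaled to the spiked controls, with 3 then higher and 7 lower). All 4 potassium channels passed as lower, 2 of them also on the spiked-control scale. The channels kch4 and kch3 fell by 2.46 ± 0.20 and 2.33 ± 0.37, ZMK2 by 0.65 ± 0.12, and ZMK1 was at -0.34 ± 0.13, adjusted p = 0.0425, a call that any of 8 arrays can end (up to 0.167) and that is at 0.16 on the spiked-control scale. Proton pumps energise such transport. The plasma membrane ATPases mha1 and mha4 fell by 1.92 ± 0.44 and 0.83 ± 0.23, the vacuolar pyrophosphatase vpp1 by 1.86 ± 0.34, and vpp3 rose by 0.41 ± 0.082, adjusted p = 0.00201. The phosphate transporter pht1 fell by 1.76 ± 0.27, the nicotianamine synthase nas1 by 0.65 ± 0.14 and the metallothionein-like mtl2 by 0.63 ± 0.099 (adjusted p of 0.000512 to 0.00281).

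Defence and detoxification genes gave no single picture. Of 21 probe sets for defence proteins and protease inhibitors, 3 rose and 13 fell, with a median of -0.65, and -0.15 on the spiked-control scale, with 3 then higher and 5 lower. The exception prp2, a pathogenesis-related gene, read 8.98, 8.69 and 8.59 on the control soil arrays and 12.86, 12.46 and 12.44 on the acid soil arrays, a rise of 3.83 ± 0.26, adjusted p = 7.02e-06. Chitinase chn1 fell by 2.27 ± 0.45, the wound-induced inhibitor wip1 by 1.29 ± 0.22 and hir3 by 0.98 ± 0.20, while umi11 rose by 0.89 ± 0.21, adjusted p = 0.00437. The cystatins, inhibitors of cysteine proteases, gave psei2, psei1 and psei3 lower at -0.94 ± 0.27, -0.67 ± 0.24 and -0.57 ± 0.18 and psei7 higher at 0.71 ± 0.25. Their adjusted p of 0.0143 to 0.0341 rise to 0.122, 0.068 and 0.103 for psei1, psei3 and psei7 when 1 of 5, 3 and 6 arrays is left out. The list of glutathione transferases has 35 probe sets, of which 10 rose and 10 fell, and its median was -0.19, which turns to 0.30 when arrays are scaled to the spiked controls, with 12 then higher and 1 lower. Both shares are near those of all probe sets, 23.5% and 31.5%. Rises of 2.09 ± 0.23, adjusted p = 9.07e-05, 1.59 ± 0.25 and 0.98 ± 0.17 were fitted for gst11, gst12 and gst13, against falls of 1.57 ± 0.24 for GST39 and 0.59 ± 0.085 for gst37. For antioxidant enzymes and peroxidases, 3 of 23 probe sets rose and 5 fell, beside 23.5% and 31.5% of all probe sets. Their median was -0.13, which turns to 0.37 when arrays are scaled to the spiked controls, with 8 then higher and 4 lower. The class III peroxidases PER42 and PER66 fell by 2.95 ± 0.49 and 1.86 ± 0.24, and the catalases cat2 and CAT3 by 2.01 ± 0.40 and 1.07 ± 0.21 (adjusted p of 0.000246 to 0.00203). Catalase cat1 was at 0.0077 ± 0.11, the superoxide dismutase sod3 rose by 0.44 ± 0.078, adjusted p = 0.00104 and thioredoxin trxh1 by 1.21 ± 0.17, adjusted p = 0.000394. Of 13 probe sets for proteolysis and senescence, 0 rose and 4 fell, the latter near the 31.5% of all probe sets. Their median was -0.025, which turns to 0.47 when arrays are scaled to the spiked controls, with 7 then higher and 2 lower. Of these, the legumain see2b and SAG fell by 2.04 ± 0.25 and 1.29 ± 0.37 (adjusted p = 0.000186 and 0.0132), whereas ccp1, ubc7 and see2a were at -0.43 ± 0.17, 0.19 ± 0.098 and 0.042 ± 0.095.

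Signalling genes were split, with the ROP GTPases, annexins and calmodulins higher. The list of ROP GTPases, calcium and kinases has 41 probe sets, of which 15 rose and 15 fell, beside 23.5% and 31.5% of all probe sets. Its median was -0.21, which turns to 0.28 when arrays are scaled to the spiked controls, with 16 then higher and 5 lower. With array medians subtracted 13 were higher and 20 lower. ROPs are plant GTPases that place growth sites on the cell surface, and 6 of 8 rose, while the other 2 did not pass and count as lower when array medians are subtracted. For rop6 the values were 5.11, 4.45 and 4.88 on the control soil arrays and 8.65, 8.77 and 8.20 on the acid soil arrays, a rise of 3.73 ± 0.32, adjusted p = 2.48e-05. Rises of 2.96 ± 0.43, 1.57 ± 0.16 and 1.14 ± 0.13 followed for rop3, rop7 and rop1 (adjusted p of 5.67e-05 to 0.000403). Both annexins, calcium-binding membrane proteins, rose, Ann7 by 1.99 ± 0.22, adjusted p = 9.97e-05 and Ann6 by 1.43 ± 0.11, adjusted p = 1.73e-05, as did both calmodulins, CaM2 by 1.22 ± 0.16 and CaM1 by 0.88 ± 0.16. For leaf development and meristem regulators, 4 of 29 probe sets rose and 7 fell, beside 23.5% and 31.5% of all probe sets. Their median was -0.14, which turns to 0.36 when arrays are scaled to the spiked controls, with 12 then higher and 0 lower. With array medians subtracted 3 were higher and 13 lower. Leafbladeless1, lbl1, acts in the small RNA pathway that defines the upper leaf side, and read 5.74, 5.47 and 5.37 on the control soil arrays and 8.74, 9.31 and 8.47 on the acid soil arrays, a rise of 3.31 ± 0.53, adjusted p = 0.000643. The epidermal homeodomain gene ocl1 rose by 1.04 ± 0.12, adjusted p = 0.000151, and Hox1b, yab9 and TE1 fell by 0.66 ± 0.12, 0.57 ± 0.13 and 0.53 ± 0.12.

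Genes of other organs served as a check of what the samples held. Of 41 probe sets for MADS box and inflorescence regulators, 5 rose and 13 fell, with a median of -0.24, which turns to 0.26 when arrays are scaled to the spiked controls, with 7 then higher and 0 lower and 4 higher and 20 lower when array medians are subtracted. Of its members zmm29, a floral MADS gene, rose from 4.30 ± 0.252 (SD) to 5.92 ± 0.204 (1.62 ± 0.15, adjusted p = 4.14e-05), and ids1, tb1, m21 and zmm14 fell by 0.80, 0.66, 0.64 and 0.51 (SE 0.092 to 0.18). The list of root-preferential genes has 19 probe sets, of which 2 rose and 9 fell, and its median was -0.31, which turns to 0.19 when arrays are scaled to the spiked controls, with 5 then higher and 3 lower. The root cap gene RCP1 read 6.09, 6.87 and 6.55 on the control soil arrays and 5.46, 5.69 and 5.56 on the acid soil arrays and fell, while the root ferredoxin fdx3 rose by 0.53 ± 0.093, adjusted p = 0.00112. For seed proteins and endosperm markers, 1 of 49 probe sets rose and 17 fell (median -0.22, which turns to 0.28 when arrays are scaled to the spiked controls, with 7 then higher and 0 lower). In that list ohp2, dzs18, betl4, ohp1 and glb3 fell by 0.99, 0.57, 0.52, 0.49 and 0.45 (SE 0.092 to 0.13), and ohp1 and glb3 come to 0.0082 and 0.042 on the spiked-control scale. The shares of the floral and seed lists that were lower are near the 31.5% of all probe sets, and that of the root-preferential list is above it. All 3 lists had fewer rises, 5 of 41, 1 of 49 and 2 of 19, than the 23.5% of all probe sets. The summed level of the 10 root-preferential genes, as log2 of the sum of unlogged values, was 12.90 to 13.00 in control soil and 13.27 to 13.43 in acid soil. Such a sum follows mainly its brightest genes, and of these 10 genes only 1 passed as higher and 6 as lower. The sum of the 34 seed genes was 11.16 to 11.29 and 11.11 to 11.23. For the 36 MADS box and inflorescence genes this sum was 10.50 to 10.51 in control soil and 10.13 to 10.22 in acid soil. For the 14 photosystem and electron transport genes it was 17.14 to 17.17 and 16.63 to 16.98. The part of these genes in the results was not tested.

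S1587-17 gives a scale for the response. In that line 0 probe sets passed by limma (0%), with 613 at an unadjusted p under 0.05 and 0 to 2 under the other settings. The difference of the responses, Cat100-6 minus S1587-17, passed at 2588 probe sets (14.7%), 1544 higher (8.76%) and 1044 lower (5.92%). The split was 2000 higher and 173 lower on the spiked-control scale and 1365 and 1745 with array medians subtracted. The count also changed with single libraries: it was 7920 without S1587-17 control replicate 3, 3695 without Cat100-6 acid soil replicate 3, and 967 to 1306 without any 1 of the remaining arrays. Of the named genes that passed, prp2 differed most upward, at 3.38 ± 0.36 (adjusted p = 0.000682), then rop6 at 3.28 ± 0.45 (adjusted p = 0.0021). Next came fps1, hmg2, crt2, thi1-2, lbl1, pdi, rop3 and AGPLS3 at 2.78, 2.76, 2.56, 2.55, 2.53, 2.40, 2.21 and 1.98. The thiamine synthesis gene thi1-2, a member of no list, read 9.14, 8.72 and 8.63 on the control soil arrays and 11.76, 12.35 and 11.51 on the acid soil arrays in Cat100-6 and 11.73, 12.01 and 10.95 in control soil and 12.02, 12.14 and 12.03 in acid soil in S1587-17. Downward, sps1 led at -3.17 ± 0.69 (adjusted p = 0.017). It was followed by xet1, nip2b, sut1, pdlk2, chn1, LAC1, kch4, kch3 and fht1 at -2.44, -2.42, -2.36, -2.27, -2.17, -2.14, -2.09, -2.02 and -1.91. At glu1, which rose most in Cat100-6 among the named genes at their brightest probe sets, the difference of 3.80 ± 1.22 (adjusted p = 0.0571) did not pass. Among families, 5 of 8 ROPs, 7 of 11 disulfide isomerases and 7 of 12 tubulins passed, and 0 of 6 replication fork proteins. The median S1587-17 response of those fork proteins was 1.055, and -0.033 without control replicate 3 of that line.

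**Figure D4:**
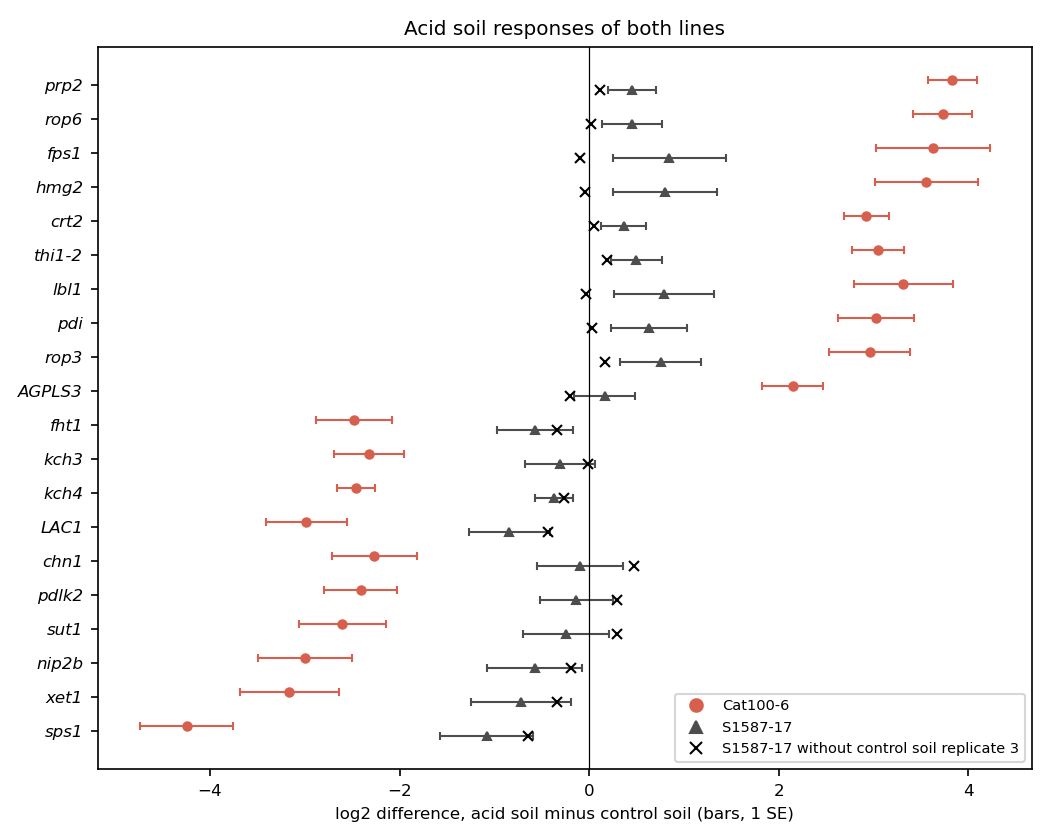
Acid soil responses of both lines at the 20 genes named for the difference of responses. The x axis is the log2 difference, acid soil minus control soil, with circles for Cat100-6, triangles for S1587-17, bars of 1 SE, and crosses for S1587-17 without its control replicate 3. The Cat100-6 response is the farther from 0 at each gene, but the genes were chosen for a large difference between the lines, which favours this.

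Some genes left the range that S1587-17 spanned over both soils. Of 131 named genes that rose by at least 1 log2 unit, 17 had all 3 Cat100-6 acid soil arrays above all 6 S1587-17 arrays, and of 94 that fell by as much, 15 had them below. These shares, 13.0% and 16.0%, lie near those of all probe sets that rose or fell by as much, 14.1% (257 of 1824) and 16.6% (194 of 1167). The 17 were PLC, orc1, expA3, hsp70-5, bx6, TUBG2, adh1, tub6, brk1, por1, lim1, gst12, zmm29, expA4, AsnS1, hsp22 and AGPLS3. The 15 were xet1, gl1, fht1, pdrp1, Lsi6, PIP1-5, ts2, pOMT1, rip2, sat1, PIP2-6, TIP2-3, FL1, GLN6 and ftr1. These lists, and TUBG2, adh1, lim1, PIP1-5, rip2, TIP2-3 and FL1 in them, were picked after their values were seen. At brk1 the S1587-17 values were 9.62, 9.16 and 9.13 in control soil and 9.49, 9.35 and 9.46 in acid soil, all under the lowest Cat100-6 acid soil array. At xet1 they were 8.98, 8.67 and 9.98 in control soil and 8.53, 8.68 and 8.26 in acid soil, all above the highest Cat100-6 acid soil array. The cell cycle and chromatin genes with the greatest rises are in neither list: at cyc3, MCM7, pcna2 and nfd101 the Cat100-6 acid soil arrays overlap the range of S1587-17.

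**Figure D5:**
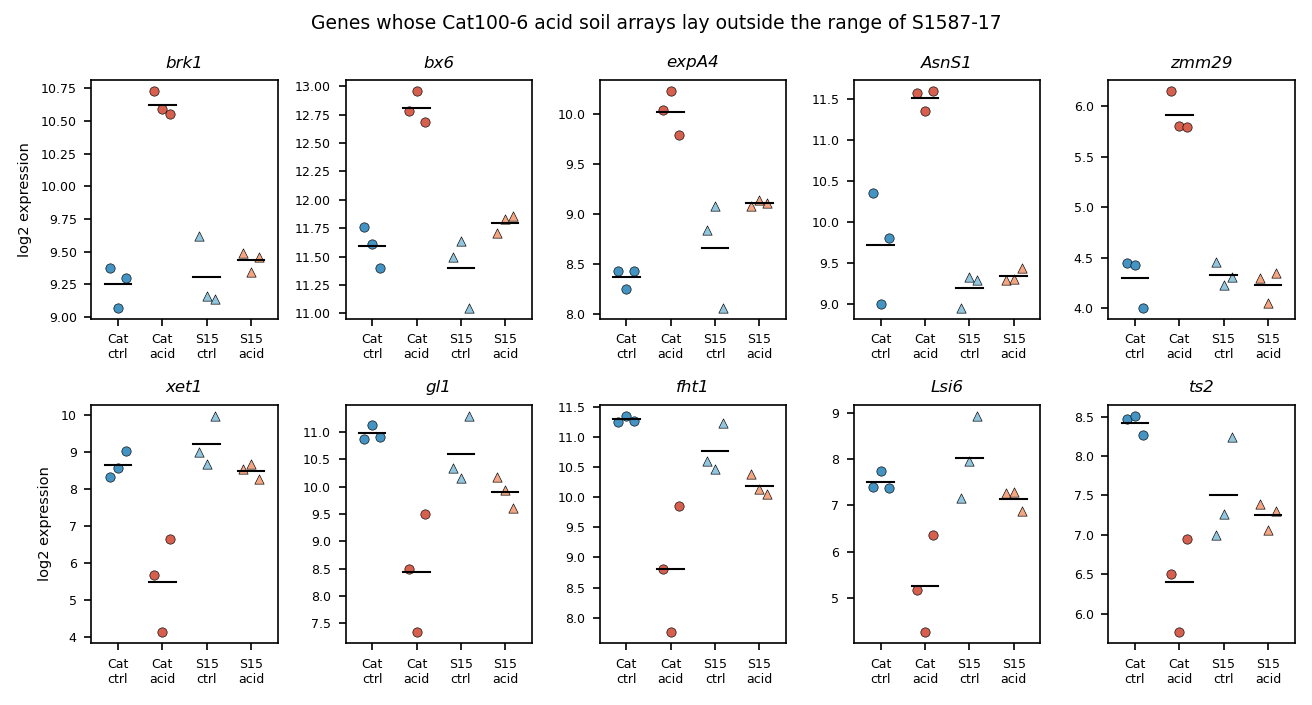
Values of 10 genes at which all Cat100-6 acid soil arrays lay above (first row) or below (second row) all arrays of S1587-17. The y axis is log2 expression, circles are Cat100-6, triangles S1587-17 (S15), ctrl is control soil, each point is 1 array and bars are group means. The Cat100-6 control arrays lie within or near the S1587-17 range at brk1, bx6 and zmm29, and only the acid soil arrays stand apart.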

How the data were processed

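RNA of whole leaves was hybridized to 12 arrays in 4 groups of 3. The deposited table holds log2 values made with RMA per the submitters' processing notes. The software version is not given in the sources used here. From it, 113 array control probe sets were left out and a mean per group was fitted on all 12 arrays with limma 3.58.1 in R 4.3.3 (8 residual degrees of freedom, empirical Bayes). P-values were adjusted by Benjamini-Hochberg over 17621 probe sets. The procedure was tested on simulated data. Tables and figures used Python 3.11.15, pandas 2.3.3 and matplotlib 3.10.9.

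The platform annotation gave 1 gene symbol to 1452 probe sets, and symbols were updated through the RefSeq gene table, which left 969 genes with a readable name. Each gene was taken at its probe set of the highest mean over the 12 arrays. Named are the 15 highest and 15 lowest passing genes whose soils do not overlap, the 5 lowest-p members at most of every list, the 10 highest and 10 lowest passing differences of responses, and list members of families of 5 or fewer genes. Single-character symbols are not printed. The comparison, the 37 lists and the 52 families were chosen with earlier results of these data known, and which families to form was settled after values had been seen, so their counts are descriptions. Alternatives were other scalings, filters, variance models, a replicate block and each array left out in turn.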

Additional observations from a re-analysis of the deposited data

Results flagged for a closer look

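The response to acid soil differed between the lines by limma's test of the difference itself at 2588 probe sets (14.7%). The 10 named genes with the highest passing difference, Cat100-6 minus S1587-17 in log2 units, were prp2 (3.38), rop6 (3.28), fps1 (2.78), hmg2 (2.76), crt2 (2.56), thi1-2 (2.55), lbl1 (2.53), pdi (2.40), rop3 (2.21) and AGPLS3 (1.98). The 10 with the lowest were sps1 (-3.17), xet1 (-2.44), nip2b (-2.42), sut1 (-2.36), pdlk2 (-2.27), chn1 (-2.17), LAC1 (-2.14), kch4 (-2.09), kch3 (-2.02) and fht1 (-1.91). S1587-17 control replicate 3, which stood apart from its group, enters each of these values, and its part in them is given by the fit without it, in which 7920 probe sets passed.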

How the results depend on the processing

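The number of probe sets that passed in Cat100-6 stayed within 1.5 times 9697 under every setting tried: 6971 without the 40% dimmest probe sets, 9155 after a second quantile normalization, 10898 with array medians subtracted, 7639 scaled to the spiked controls (6589 higher and 1050 lower), 9706 with a trended and robust variance, 9543 with array weights, 9940 when only the 6 Cat100-6 arrays were fitted (9253 of them shared with the 12-array fit), and 7731 to 10939 with 1 array left out. The labels do not say whether a replicate number was shared between the soils. The deviations of same-numbered samples correlated at 0.0238, 0.0396 and 0.16 in Cat100-6 and at -0.125, 0.148 and -0.292 in S1587-17, which cannot decide it. With the replicate number as a block 8814 passed in Cat100-6 and 1193 for the difference of responses. That difference, 2588 as reported, gave 7381 with array weights and 967 to 7920 with 1 array left out. For S1587-17 the count of 0 became 1 on the spiked-control scale, 2 with array weights, and 0 to 1 with 1 array left out (control replicate 2 or 3). The causes were not tested. Scaling to the spiked hybridization controls turned the sign of Lhcb5-2 to 0.10, igl1 to 0.39, stc1 to 0.049, GRF14 to 0.011, GRF13 to 0.00078, ccp1 to 0.065, glb3 to 0.042, ohp1 to 0.0082, pdlk1 to 0.058, lhcb5 to 0.33, lhcb6 to 0.40, aox1 to 0.28, aox3 to 0.34, hcf106 to 0.25, Hcf106C to 0.34, tha9 to 0.40, hsp18a to 0.15, met4 to 0.37, sh2 to 0.49, TPT to 0.18, ZMK1 to 0.16, RBR2 to 0.15 and gln3 to 0.23. A second quantile normalization turned the sign of see2a to -0.082, aox3 to 0.012, GIF2 to -0.016, cat1 to -0.039 and sh2 to 0.17. Subtracting array medians turned the sign of see2a to -0.056, Cab-m7 to -0.070, aox2 to -0.049, GIF2 to -0.082 and cat1 to -0.091. With 1 array left out, the signs of 5 genes that did not pass turned, and their values ranged as follows: GIF2 from -0.027 to 0.066, aox2 from -0.038 to 0.16, cat1 from -0.050 to 0.10, see2a from -0.0027 to 0.13 and sh2 from -0.11 to 0.092. Other settings turned no sign among the genes named by rule. Arrays carry no depth, 3 per group limit the precision, and RMA values give no detection calls.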

Other observations

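Of 181 genes with more than 1 probe set, 15 had a probe set that rose and another that fell. The list medians were largest in size on acid soil replicate 2 for 27 of 37 lists and smallest on replicate 3 for 26.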
